A study of Mus musculus with 6 samples.

Results

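The SLAM family receptors, the products of Slamf1, Cd48, Cd84, Ly9, Slamf6 and Slamf7, were examined in mouse B cells of the gut, comparing the germinal center (GC) with the naive compartment of Peyer's patches. These 6 genes were taken by name, and each matched 1 Ensembl identifier among the 39179 genes of the deposited table. The series holds RNA-Seq of 6 pools of ileal Peyer's patch B cells from female C57BL/6 mice of WT genotype, aged 12 weeks, with 3 GC pools (sorted as Fas+GL7+ B cells) and 3 naive pools (sorted as Fas-GL7- B cells, called resting in the methods). The mice were littermates and each pool combined several of them, so a value is an average over mice and over all the cells in the sort gate. GC B cells in this gate were not divided into dark zone, light zone or differentiating cells, and no mutation, transgene or treatment separated the groups. Values are TPM (transcript abundance on a scale on which each pool sums to 1000000), computed from the deposited FPKM (fragments per kilobase of transcript, scaled to depth). TPM is a per-length unit, in which levels of different genes can be set side by side.

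SLAM receptors are immunoglobulin-like proteins on the surface of blood cells. Most of them bind the same molecule on a neighboring cell, so they act as ligand and receptor at once, while CD48 binds the related proteins CD2 and 2B4 (the product of Cd244). Except for CD48, which is held by a lipid anchor and has no tail inside the cell, the tails of the 6 proteins carry tyrosine switch motifs. When phosphorylated, these motifs recruit small adaptors, SAP (Sh2d1a) and the EAT-2 proteins (Sh2d1b1 and Sh2d1b2), or phosphatases in their place. In the GC, SLAM receptors are known for their part in adhesion between B cells and follicular helper T cells.

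The library totals were between 717537 and 774597 FPKM, and the steps between low values correspond to about 9800000 to 15900000 reads per pool, with naive replicate 2 the deepest. The labeled cell types were checked against marker genes. Fas, the gene of the sort, was at 114 ± 5.55 TPM in GC against 3.22 ± 0.314 TPM in naive B cells (SD, n = 3). All 6 GC markers were higher in GC (adjusted p under 0.05 in limma), beside 35.5% of all genes tested. Gcet2 led the list (282 ± 3.38 TPM against 0.246 ± 0.0740 TPM; SD, n = 3). Klf2, a gene of resting B cells, was at 4.16 ± 0.930 TPM in GC against 286.9 ± 41.2 TPM in naive B cells (SD, n = 3). The B cell marker Cd79a was at 1077 ± 21.1 TPM in GC against 2349 ± 46.0 TPM in naive B cells (SD, n = 3), while the B cell marker Ms4a1 was higher in GC (906 to 956 TPM over the GC pools against 708 to 722 TPM over the naive pools). T cells also carry SLAM receptors, and 8 T cell markers summed to only 3.60 to 6.54 TPM in GC and 7.48 to 9.09 TPM in naive pools, with Lat highest. The 6 NK cell markers summed to at most 1.88 TPM in any pool, with Ncr1 and Klrk1 listed at 0 in all pools and Prf1 highest. The 6 myeloid markers summed to 2.29 to 2.70 TPM in GC and 5.09 to 7.87 TPM in naive pools, with Lyz2 highest. The 6 epithelial markers summed to 22.2 to 38.0 TPM in GC and 47.7 to 76.1 TPM in naive pools, with Krt8 highest. Of these, 5 were tested, of which 3 were lower in GC, 1 was higher and 1 did not pass the threshold. Among all genes tested, 30.1% were lower and 35.5% higher. The higher one was Krt18 (3.23 ± 0.477 TPM in GC against 1.83 ± 0.387 TPM in naive B cells; SD, n = 3). The part of these cells in the results below was not tested.

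All 6 receptors were expressed in both populations, but the mixture of receptors differed. Slamf7 was 6.14 times higher and Slamf1 1.75 times higher in GC than in naive B cells, as ratios of mean TPM. Cd84 was 5.20 times lower in GC B cells, and Slamf6, Ly9 and Cd48 were lower by smaller factors (naive over GC 1.38 for Slamf6, 1.26 for Ly9 and between 1.07 and 1.38 over pairs of pools for Cd48). All 6 differences passed the threshold (adjusted p under 0.05 in limma, over 12785 genes), 2 higher and 4 lower in GC, and in all 6 the ranges of the populations were separate. This count has to be read against the background, since 65.6% of all genes tested passed the same threshold (35.5% higher and 30.1% lower in GC), and 70.7% had separate ranges. With a log2 fold change of at least 1 asked for as well, 1 member was higher (Slamf7, beside 14.2% of genes tested) and 1 was lower (Cd84, beside 11.2%). The median absolute log2 fold change was 0.61 over the 6 receptors and 0.54 over all genes tested. Only 5.94% of the genes tested had a larger absolute change than Slamf7 and 7.63% a larger one than Cd84. In these bulk samples, fewer cells that express a gene and less RNA per cell cannot be told apart.

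The sequences just before the transcription starts of Slamf7, Cd84 and Slamf1 are shown because these genes of one cluster moved in opposite directions. They had the 3 largest differences, although Slamf6 (-0.72) passed Slamf1 (0.61) when the fit was adjusted for transcript length and base composition. Promoter windows of 5 members were matched by symbol in RefSeq (GRCm38.p6), while the methods name NCBIm38 v75 for the transcriptome of the RNA-Seq. The 250 bases before the start that this table uses are printed 5′ to 3′ on the strand of the gene. The Slamf7 window lies inside the annotated span of the gene, whose farthest start is further upstream, and the Slamf1 window ends on the first annotated base of the gene. Of the windows not printed, that of Cd48 also lies inside the span of its gene, and that of Slamf6 ends just inside it. Capitals mark matches to CANNTG (the E box bound by basic helix-loop-helix factors) and to TGANTCA (an AP-1 type sequence), searched on both strands.
Slamf7, minus strand, chr1:171649000-171649249: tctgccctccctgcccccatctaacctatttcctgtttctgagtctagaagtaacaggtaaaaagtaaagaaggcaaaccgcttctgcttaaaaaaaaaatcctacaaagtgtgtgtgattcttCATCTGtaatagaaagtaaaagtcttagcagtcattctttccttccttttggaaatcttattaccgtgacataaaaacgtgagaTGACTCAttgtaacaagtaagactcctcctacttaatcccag
Slamf1, plus strand, chr1:171766882-171767131: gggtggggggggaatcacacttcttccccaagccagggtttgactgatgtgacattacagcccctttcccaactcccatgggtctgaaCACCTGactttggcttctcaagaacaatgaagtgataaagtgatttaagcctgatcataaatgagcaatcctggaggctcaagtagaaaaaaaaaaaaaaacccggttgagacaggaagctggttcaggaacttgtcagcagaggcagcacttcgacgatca
Cd84, plus strand, chr1:171839447-171839696: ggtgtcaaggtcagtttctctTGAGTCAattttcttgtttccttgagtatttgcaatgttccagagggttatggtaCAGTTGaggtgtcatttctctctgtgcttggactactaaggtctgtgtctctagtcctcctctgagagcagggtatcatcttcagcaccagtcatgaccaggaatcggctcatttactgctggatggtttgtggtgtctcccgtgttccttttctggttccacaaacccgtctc
Each of these windows holds 1 match to CANNTG, which starts at base -126 in Slamf7, -162 in Slamf1 and -174 in Cd84, counted back from the last base before the start as -1. Cd48 and Slamf6 also hold 1 match each, so that all 5 windows have one, but so do 66.2% of the 32851 windows of this length in the table. TGANTCA was found in Slamf7 (base -42) and Cd84 (base -229) and not in Slamf1, Cd48 or Slamf6, against 6.75% of all windows. These 2 genes changed in opposite directions. The other 6 motifs searched, ATGCAAAT (1.60% of all windows), CGGAAG (13.6%), TTCNNNGAA (7.02%), GGGCGG (32.7%), TATAAA (12.4%) and GAGGAAG (10.6%), had no match in the 5 windows. A match is a run of letters and not a shown binding site. The 5 windows had between 1 and 4 CpG dinucleotides, and their GC base content was between 38.0% and 48.4%, below the median of all windows (6 CpG dinucleotides and 52.4%).

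Slamf7 (ENSMUSG00000038179), also known as CRACC, is a self-ligand that signals through EAT-2 and is known from NK cells, activated B cells and plasma cells. The GC pools had 113, 113 and 117 TPM (replicates 1, 2 and 3), and the naive pools had 18.9, 18.8 and 18.0 TPM. The spread among pools of a population was small beside this gap, with a coefficient of variation of 1.97% in GC and 2.75% in naive B cells. The log2 fold change, here and below on the log2(TPM + 1) scale, was 2.55 ± 0.05 (SE; 95% interval 2.43 to 2.68; adjusted p = 2.41e-07 in limma), the 479th highest value of 12785 genes. For every choice of 1 GC and 1 naive pool, the ratio lay between 5.95 and 6.48. Slamf7 thus had the lowest level of the 6 receptors in naive and the highest in GC B cells.

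Because Slamf7 is also found on plasma cells, the plasma cell markers are given beside it. Of 6 markers, 2 were higher and 3 lower in GC, beside 35.5% and 30.1% of all genes tested. Tnfrsf17, which encodes the receptor BCMA, was listed at 0 in 5 of the 6 pools. Igj, the joining chain of secreted antibodies and the highest of the list, was at 669 ± 20.3 TPM in GC against 33.3 ± 9.77 TPM in naive B cells (SD, n = 3). Prdm1, the regulator of plasma cell fate, was at 5.01 ± 0.280 TPM against 0.955 ± 0.107 TPM (SD, n = 3). In the opposite direction, Sdc1 (syndecan-1, a surface marker of plasma cells) was at 1.51 ± 0.527 TPM in GC against 3.19 ± 0.526 TPM in naive B cells, and Irf4 was at 21.7 ± 0.485 TPM against 76.4 ± 5.46 TPM (SD, n = 3 for each). The summed level of the 6 markers was 787 to 823 TPM in GC and 219 to 252 TPM in naive pools, and most of it in GC was Igj. The part of plasma cells in the Slamf7 level was not tested.

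Slamf1 (ENSMUSG00000015316) encodes CD150, the self-ligand that gave the family its name and is present on activated B and T cells. The GC pools held 61.3, 54.9 and 63.0 TPM and the naive pools 34.5, 35.4 and 32.7 TPM. The lowest GC pool was thus well above the highest naive pool. The log2 fold change was 0.78 ± 0.07 (SE; 95% interval 0.61 to 0.96; adjusted p = 0.000115 in limma). A larger absolute change was seen in 35.4% of the genes tested, so the rise of Slamf1 was of ordinary size for this comparison.

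Cd84 (ENSMUSG00000038147), another self-ligand, is known to help prolong the contact between B and T cells in the follicle. Its naive pools had 49.7, 56.8 and 47.0 TPM and its GC pools only 9.55, 10.9 and 9.03 TPM. The log2 fold change was -2.26 ± 0.10 (SE; 95% interval -2.52 to -2.01; adjusted p = 5.18e-06 in limma), the 380th lowest value of 12785 genes. The ratio of any naive to any GC pool lay between 4.29 and 6.29. Cd84 is abundant on platelets, and of 6 platelet markers Pf4, Ppbp and Treml1 were listed at 0 in all pools, while the 6 summed to 2.58 to 3.99 TPM in GC and 1.74 to 4.29 TPM in naive pools, with Itga2b highest. The 6 myeloid markers given above, from cells that also carry CD84, were higher in sum in the naive pools.

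**Figure D1:**
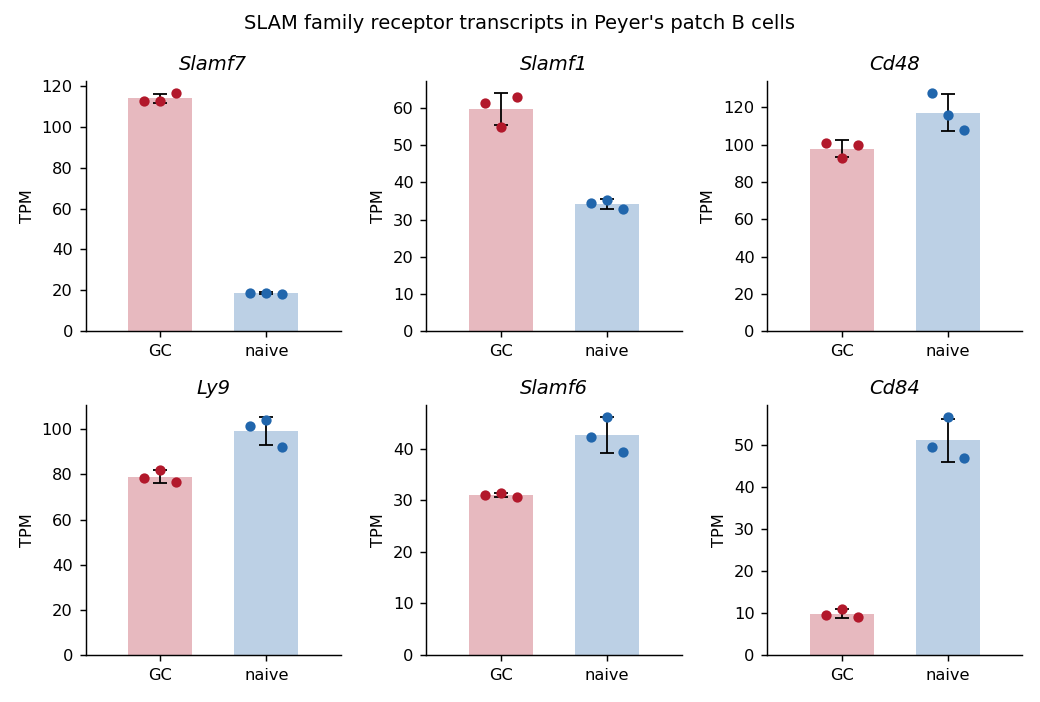
TPM of the 6 SLAM family genes, with 1 panel per gene and linear axes that start at 0. Points are pools, bars are means and error bars are SD over 3 pools. Slamf7 and Slamf1 stand higher in all 3 GC pools, and Cd84, Slamf6, Ly9 and Cd48 stand higher in all 3 naive pools, with the gap narrow for Cd48 (highest GC pool 101 TPM, lowest naive pool 108 TPM).

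Slamf6 (ENSMUSG00000015314), also called Ly108, is a self-ligand whose engagement can promote or weaken the contact of T and B cells depending on whether SAP is present. The GC pools held 31.0, 31.3 and 30.7 TPM, below the naive pools with 42.3, 46.2 and 39.4 TPM. Its GC pools were the most alike of any member in either population, with a coefficient of variation of 1.05%. The log2 fold change was -0.44 ± 0.07 (SE; adjusted p = 0.00171 in limma), and it became -0.72 when the fit was adjusted for transcript length and base composition.

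Ly9 (ENSMUSG00000004707) encodes CD229, a self-ligand known to restrain innate-like B cell subsets. The GC pools held 78.6, 82.0 and 76.6 TPM, below the naive pools with 102, 104 and 92.0 TPM. The log2 fold change was -0.32 ± 0.06 (SE; adjusted p = 0.00376 in limma). This difference was smaller than in most genes, and 66.8% of those tested had a larger absolute change.

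Cd48 (ENSMUSG00000015355), the receptor without a tail and the ligand of CD2 and 2B4, had the smallest difference of the 6 as fitted. Its GC pools had 101, 92.7 and 99.9 TPM and its naive pools 128, 116 and 108 TPM. The ranges were separate, but GC replicate 1 and naive replicate 3 were close. The log2 fold change was -0.25 ± 0.07 (SE; 95% interval -0.43 to -0.08; adjusted p = 0.0215 in limma). The call was lost without GC replicate 2 (-0.22, adjusted p = 0.0682 in limma), without naive replicate 1 (-0.19, adjusted p = 0.0553) and without naive replicate 2 (-0.26, adjusted p = 0.0514). Adjusting for transcript length and base composition moved the value to -0.60, beyond that of Ly9 (-0.44).

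The order of levels within each population changed accordingly. In GC B cells it ran from Slamf7 (114 ± 2.24 TPM) through Cd48 (97.9 ± 4.55), Ly9 (79.0 ± 2.73), Slamf1 (59.7 ± 4.31) and Slamf6 (31.0 ± 0.324) to Cd84 (9.84 ± 0.992 TPM; each SD over 3 pools). Among naive cells the order ran from Cd48 (117 ± 9.99 TPM) through Ly9 (99.2 ± 6.36), Cd84 (51.1 ± 5.08), Slamf6 (42.6 ± 3.43) and Slamf1 (34.2 ± 1.36) to Slamf7 (18.6 ± 0.510 TPM; SD, n = 3). The ranges of neighbors in either order did not overlap over the 3 pools. The relation of Cd48 to Ly9 moved little, and the ratio of Cd48 to Ly9 was 1.24 ± 0.0956 in GC and 1.18 ± 0.0705 in naive B cells (SD, n = 3), with ranges that overlapped (1.13 to 1.31 and 1.12 to 1.26).

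A ratio of 2 genes within a pool does not depend on how the pools are scaled to each other. The ratio of Slamf7 to Cd84 was 11.8, 10.3 and 12.9 in the GC pools and 0.381, 0.331 and 0.383 in the naive pools. The ratio of Slamf1 to Cd84 was 6.14 ± 1.01 in GC and 0.672 ± 0.0420 in naive B cells (SD, n = 3). The ratio of Slamf7 to Slamf6 was 3.67 ± 0.107 and 0.437 ± 0.0266, respectively (SD, n = 3). These values show unequal change among genes of one cluster, however whole pools are scaled to each other.

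Summed over the 6 genes, the level changed far less than its make-up. It was 394, 384 and 396 TPM in the GC pools and 375, 377 and 337 TPM in the naive pools. These ranges did not overlap, and they did overlap when the median gene was set equal in all pools (375 to 389 in GC and 360.1 to 379 in naive pools). Slamf7 took 29.1% ± 0.470 of the sum in GC and 5.12% ± 0.190 in naive B cells (SD, n = 3). Cd84 took 2.52% ± 0.295 and 14.1% ± 0.908, and Slamf1 took 15.2% ± 0.870 and 9.44% ± 0.257, respectively (SD, n = 3). Cd48 and Ly9 together with Slamf6 made up the rest, and for each of them the highest share in a GC pool was under the lowest share in a naive pool.

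**Figure D2:**
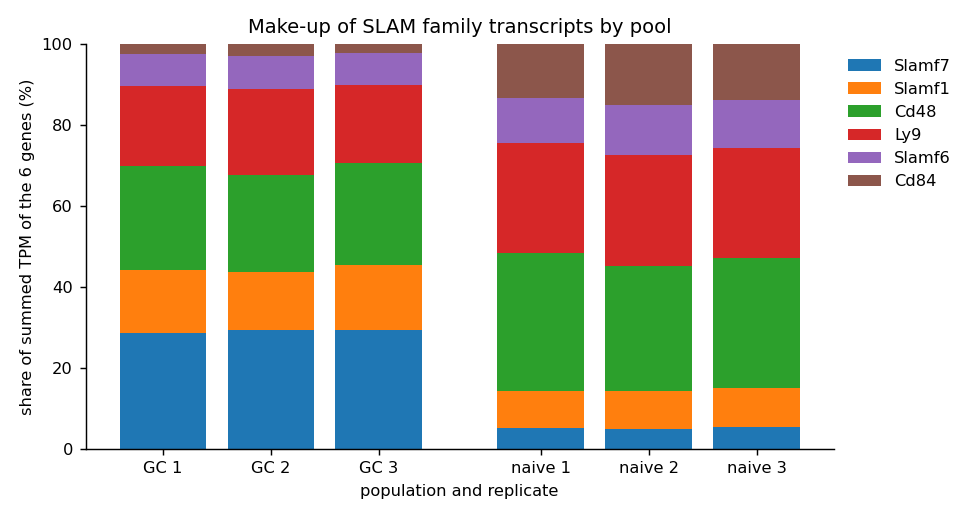
Share of each gene in the summed TPM of the 6 SLAM family genes, with 1 bar per pool and percent on the vertical axis. In the 3 GC pools Slamf7 takes 28.6% to 29.4% and Cd84 2.28% to 2.85%, whereas in the 3 naive pools Slamf7 takes 4.98% to 5.34% and Cd84 13.3% to 15.1%.

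The 6 genes lie in a cluster on chromosome 1, together with Cd244. In GRCm38.p6 this cluster of 7 genes runs from 171558718 to 171948958, in the order Cd244, Ly9, Slamf7, Cd48, Slamf1, Cd84 and Slamf6. Slamf7 (171632403 to 171653037), which rose, lies 24992 bases from Ly9 and 28207 bases from Cd48, which were both lower in GC. Slamf1 (171767131 to 171801184), which also rose, lies 61872 bases from Cd48 and 38512 bases from Cd84 (171839697 to 171890718). Among the family genes alone, each of the 2 higher genes thus has a lower one on either side. Other genes lie between them, and Tma7-ps, between Cd48 and Slamf1, did not pass the threshold. The RefSeq genes that overlap members (Mir7683, Gm51686 and Gm37065) were not matched to a value here. Of 11 other genes with a value inside the cluster or within 150 kb of it, 9 were tested, of which 6 were lower in GC, 0 were higher and 3 did not pass the threshold, beside 30.1% lower and 35.5% higher among all genes tested. Together with the members, 15 genes were tested in this stretch, and Slamf7 and Slamf1 were the 2 called higher in GC.

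**Figure D3:**
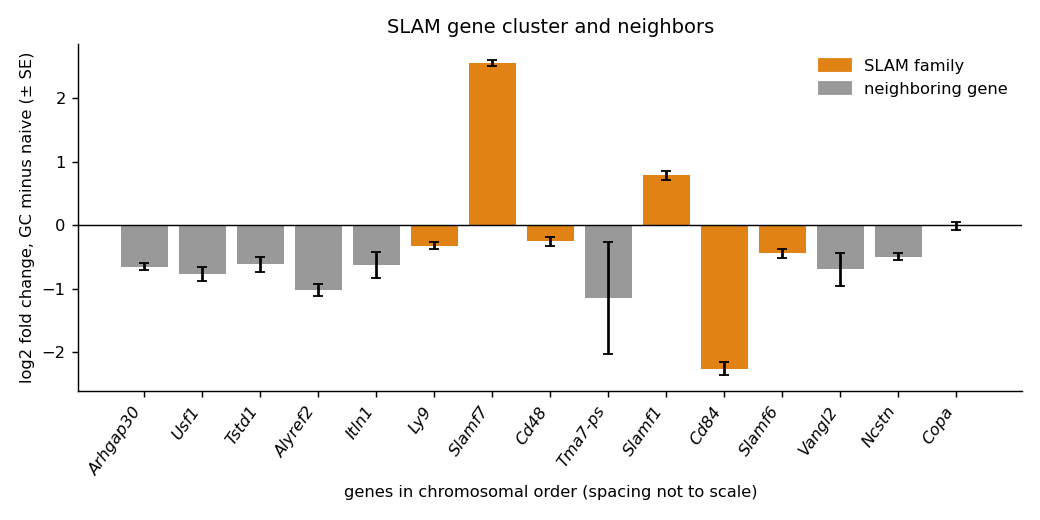
Log2 fold change (GC minus naive, on log2(TPM + 1)) of the tested genes in and beside the SLAM cluster, in chromosomal order with spacing not to scale. Bars are fitted values and error bars are SE; Slamf7 (2.55) and Slamf1 (0.78) point up among genes that point down or lie near 0.

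Other receptors of the family were mostly low. Cd244, which encodes 2B4, a receptor of CD48, was between 0.194 and 0.237 TPM over the GC pools, 0.594 to 0.684 TPM over the naive pools, and was too low to be tested. Slamf8 was at most 0.122 TPM in any pool and was not tested. Slamf9, which like Slamf8 has a short tail without switch motifs, had 2.81, 3.64 and 3.85 TPM in the naive pools but 0.551, 0 and 0.613 TPM in GC. It passed the filter only through the naive pools (log2 fold change -1.70 ± 0.23, adjusted p = 0.000698 in limma), and its value depends on the pseudocount (-4.49 with 0.01). Cd2, whose product binds CD48 in mice, was by far the highest of this group, with 195, 199.6 and 196 TPM in the naive pools and 49.8, 61.9 and 50.5 TPM in GC. Its log2 fold change was -1.85 ± 0.09 (SE; adjusted p = 6.12e-06 in limma) beside -0.25 for its partner Cd48; the difference between these changes was not tested. Cd2 is also a T cell gene, and the 8 T cell markers, given singly beside Lck below, each stayed at or under 4.86 TPM in every pool.

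Of the SAP family adaptors, Sh2d1b2, which encodes an EAT-2 protein of mice, was detected almost only in GC. GC pools had 14.6, 11.4 and 13.8 TPM, whereas the gene was listed at 0 in naive replicates 1 and 2, and was at 0.413 TPM in naive replicate 3. It passed the filter only through the GC pools, with a log2 fold change of 3.66 ± 0.18 (SE; adjusted p = 7.81e-06 in limma) that depends on the pseudocount, being 8.56 with a pseudocount of 0.01. Sh2d1b2 and the related Sh2d1b1 are neighbors on chromosome 1 (170232871 to 170251587 and 170277318 to 170286769, GRCm38.p6). No value was found for the identifier matched to Sh2d1b1, so that gene was not analyzed here. How reads were divided between these similar genes was not tested. Sh2d1a, which encodes SAP and is known from T and NK cells, was at 0.620 to 1.63 TPM over the GC pools and at 0 to 0.513 TPM over the naive pools, and was too low to be tested.

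Genes that act behind the receptors moved in both directions. Of 21 kinases, phosphatases and effectors linked to SLAM signaling, 19 were tested, of which 8 were higher in GC, 5 were lower and 6 did not pass the threshold. These shares lie near those of all genes tested, of which 35.5% were higher and 30.1% lower. Their median log2 fold change was 0.15, beside 0.03 over all genes tested. All 5 kinases passed the threshold, 3 higher and 2 lower in GC. Fyn, the kinase that SAP brings to SLAM receptors, was at 85.3 ± 3.17 TPM in GC against 45.4 ± 1.46 TPM in naive B cells (SD, n = 3), with a log2 fold change of 0.90 ± 0.05 (SE; adjusted p = 1.59e-05 in limma). The related kinase Lck was at 131 ± 4.56 TPM against 65.5 ± 1.39 TPM (SD, n = 3; log2 fold change 0.99, adjusted p = 5.75e-06 in limma). Lck is best known from T cells, whose 8 markers went in both directions. Lat (1.87 ± 0.541 TPM in GC against 3.93 ± 0.805 TPM in naive B cells; SD, n = 3) and Zap70 (0.609 ± 0.252 against 2.06 ± 0.450 TPM) were lower in GC, Zap70 passing the filter only through the naive pools. Cd3e (0.637 ± 0.141 against 0.233 ± 0.153 TPM; SD, n = 3) and Cd28 (0.157 ± 0.0556 against 0.0622 ± 0.0201 TPM) had higher values in GC with separate ranges, but were too low to be tested, and the ranges of Cd3d, Cd3g, Cd4 and Cd8a overlapped. The part of T cells in the level of Lck or Cd2 was not tested. Fgr, also of the Src family, went the other way, with 14.4, 13.3 and 12.3 TPM over the GC pools and 35.9, 34.5 and 32.1 TPM over the naive pools (log2 fold change -1.30, adjusted p = 2.48e-05 in limma). The call of Csk, the kinase that restrains this family, was small (log2 fold change 0.14) and was lost under 3 of 4 other scalings.

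Among the 4 phosphatases, 1 was higher, 1 was lower and 2 did not pass the threshold, shares near those of all genes tested (35.5% higher and 30.1% lower). Ptpn6, which encodes SHP-1, had 1728, 1831 and 1822 TPM in the naive pools and 625, 1058 and 703 TPM in GC. GC replicate 2 was well above the other GC pools but below all naive pools, and the log2 fold change was -1.21 ± 0.19 (SE; adjusted p = 0.00139 in limma). Inppl1, which encodes the inositol phosphatase SHIP-2, was at 18.1 ± 0.412 TPM in GC against 9.14 ± 0.987 TPM in naive B cells (SD, n = 3; log2 fold change 0.92, adjusted p = 0.00022 in limma). Ptpn11, which encodes SHP-2, had a log2 fold change of 0.18 (95% interval -0.02 to 0.37; adjusted p = 0.101 in limma) and did not pass the threshold. Of 12 effectors, 10 were tested, of which 4 were higher and 2 lower, again near the shares of all genes tested. Those with the largest changes were Cbl, a ubiquitin ligase (31.8 ± 0.465 TPM in GC against 17.2 ± 3.36 TPM in naive B cells, log2 fold change 0.87, adjusted p = 0.00173 in limma), Plcg2, the phospholipase of B cell receptor signaling (0.39, adjusted p = 0.000479), and Uvrag, an autophagy factor (0.36, adjusted p = 0.00172). The call of Becn1 (0.24), an autophagy factor, was lost with quantile normalization (0.13) and on adjusting for transcript length and base composition (0.015, adjusted p = 0.794 in limma). The calls of Bcl10 (-0.18) and Pik3c3 (-0.20) were lost in 7 of 16 alternatives each.

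**Figure D4:**
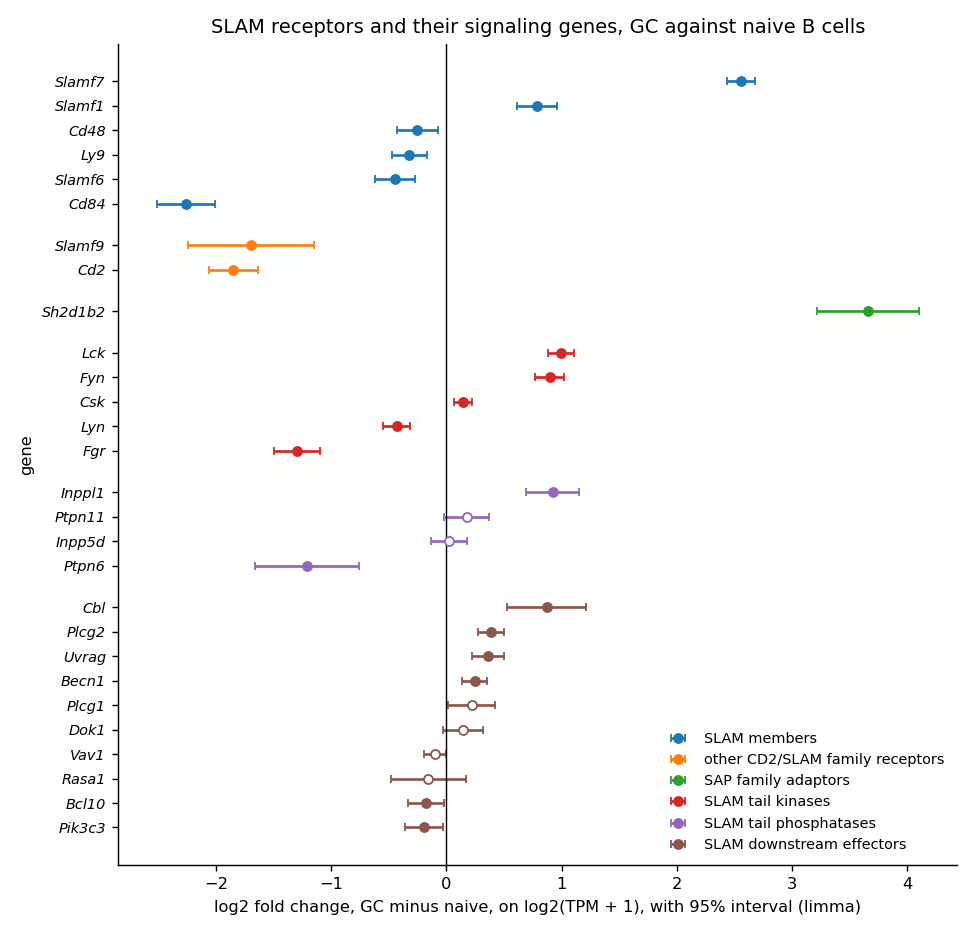
Log2 fold change (GC minus naive, on log2(TPM + 1)) of the 6 SLAM members and 22 other tested genes of the pathway, grouped by role. Points are fitted values with 95% intervals from limma, and open points did not pass an adjusted p of 0.05. Sh2d1b2 (3.66) and Slamf7 (2.55) lie farthest to the right and Cd84 (-2.26) farthest to the left.

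For each member, the genes with the most similar values were sought over the 6 pools among 12124 genes with a symbol, by the root mean square difference in log2(TPM + 1). Rcc1 (mean 101 TPM in GC against 17.8 TPM in naive B cells, difference 0.136) and Dstn (difference 0.144) were nearest to Slamf7. Polr2d (difference 0.0524) and E130309D02Rik (0.0872) were nearest to Slamf1, and Cyp4f13 (0.125) and Ptprj (0.126) were nearest to Cd84. The nearest genes were Arhgap25 (0.0663) and Xbp1 (0.0896) beside Cd48, Plp2 (0.0608) and Ganab (0.0628) beside Ly9, and Gm16211 (0.0528) and Gm16586 (0.0633) beside Slamf6. No member was among the 2 nearest genes of another. These are descriptions of level and difference over 6 pools of 2 populations.

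**Figure D5:**
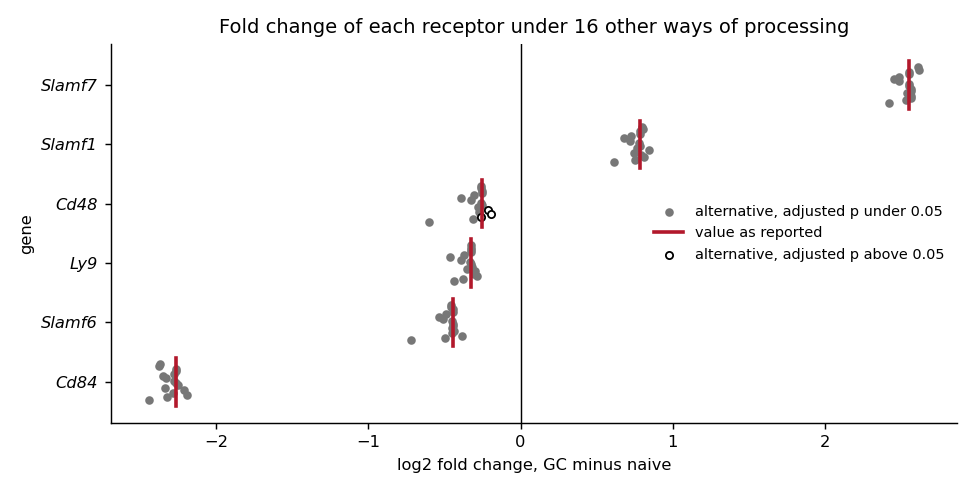
Log2 fold change (GC minus naive) of each member as reported (red line) and under 16 other ways of processing (points), with open points for an adjusted p above 0.05 in limma. No point crosses 0, and the open points belong to Cd48.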

How the data were processed

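RNA was measured in 3 GC and 3 naive pools. Per the methods and the submitters' processing notes, the authors trimmed reads with cutadapt v1.9, estimated abundance with RSEM v1.2.25 against mouse transcripts of NCBIm38 v75, and deposited FPKM per gene and pool with 2 decimals. edgeR is named in the submitters' notes without a role. FPKM were rescaled here to TPM (each pool summing to 1000000). Symbols were matched for 33398 of 39179 identifiers. Genes reaching 1 TPM in 3 or more pools entered a linear model on all 6 pools (limma 3.58.1, R 4.3.3; lmFit and eBayes with trend) on log2(TPM + 1), unpaired, with Benjamini-Hochberg adjustment over 12785 genes. A pseudocount understates changes of weak genes. Whether reads were counted by strand is not given in the sources used here. Depth was estimated from FPKM steps of genes with 1 transcript of 250 to 900 bases; between 64.2% and 73.3% of low values lay within 5% of whole reads, so no count test was run, and precision is given by the spread of pools.

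Members and lists were chosen with earlier results of these data known. Named genes were all members, receptors and adaptors, in each list of kinases, phosphatases and effectors those called with an absolute log2 fold change of at least 1, or else the 3 with the largest changes, Fas, the 2 nearest profiles per member and the highest gene of each marker list; other names were added after their values were seen, and some marker genes are not reported here. In simulated data for this comparison (12785 genes, 200 changed), limma recovered 0.0% at a log2 fold change of 0.25, 20.0% at 0.50, 74.5% at 1 and 94.0% at 2. Of the simulated calls, 6.9% were false at 1 and 4.1% at 2. In the real data 65.6% of genes were called, so the adjusted threshold was stricter in the simulation. The simulated shares therefore do not give the sensitivity of the real comparison. The remaining steps ran in Python 3.11.15 (numpy 2.4.6, pandas 2.3.3 and matplotlib 3.10.9). Alternatives covered the pseudocount, filters, scaling, the replicate block, each pool left out and, added after seeing the data, an adjustment for transcript length and GC content.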

Additional observations from a re-analysis of the deposited data

How the results depend on the processing

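Over 32 results, 504 alternative values were computed, of which 22 lost the threshold, 8 gained it and 5 changed sign; the other 469 kept direction and side of the threshold or, for counts, stayed within 1.5 times. Slamf1, Cd84, Ly9, Slamf6 and Slamf7 kept theirs in all 16 alternatives each. Leaving out 1 pool gave log2 fold changes of 0.74 to 0.84 for Slamf1, -0.31 to -0.19 for Cd48, -2.34 to -2.19 for Cd84, -0.38 to -0.29 for Ly9, -0.50 to -0.39 for Slamf6 and 2.53 to 2.57 for Slamf7. Cd48 fell short of the threshold without GC replicate 2, naive replicate 1 or naive replicate 2, and the cause was not tested. Between 5 and 6 members (5 in the 3 cases without Cd48) and between 7656 and 8101 of all genes were called when a pool was left out. Inpp5d, which was not called (0.02), changed sign with FPKM as deposited (-0.032), quantile normalization (-0.091), equal medians (-0.048), the GC content and length correction (-0.050) and without naive replicate 3 (-0.036, with a range of -0.036 to 0.078 over pools left out).

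The correction for GC content and transcript length covered 86.3% of genes. With it the median log2 fold change of the covered genes was -0.08, beside 0.03 over all genes tested without it. These medians are over different sets of genes. The correction gave 0.61 for Slamf1, -0.60 for Cd48 and -0.72 for Slamf6. With the replicate number as a block, 7960 genes and all 6 members were called. Deviations of pools with the same number correlated at 0.083, 0.022 and 0.046, too little to take the numbers as pairs, although each GC pool correlated best with its own number. The filter of 1 TPM left Cd244, Slamf8 and Sh2d1a untested, and Slamf9 had no value with a filter of 5 TPM.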
